A study of Mus musculus with 24 samples.

Results

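miR-101a-3p and miR-101b-3p (mmu-miR-101a-3p and mmu-miR-101b-3p in the table) are the mature microRNAs (miRNAs) cut from the 3′ arms of the mouse hairpins Mir101a and Mir101b. They were taken by name from the table of mammary gland miRNAs, where a mark (@) that trails 16 names was ignored, and they are 2 of the 1009 miRNAs listed. The name of miR-101a-3p carries this mark and that of miR-101b-3p does not, and what the mark stands for is not given in the sources used here. If it marks a group of alike miRNAs, each level and ratio given for miR-101a-3p may include others, such as miR-101c, whose sequence lies inside it. The study sequenced small RNA from the abdominal and inguinal glands, homogenized whole, in 24 females of the inbred strain C57BL/6 and made 1 library for each mouse. The 4 groups of 6 mice were adults of 10 weeks of age (W10), mice at day 18 of pregnancy (P18), at day 7 of lactation (Lac7) and at day 3 of involution (Inv3), the regression of the gland once suckling has ended. No genotype, agent or treatment other than the stage is named in the labels, and the age is given for W10 only. Libraries held 660346 to 1165321 reads on miRNAs, and the median was lowest at Lac7, where they held 660346 to 751890. Levels are given in RPM, reads for each 1000000 reads on miRNAs as the authors scaled them, so a level also moves when other miRNAs take more or fewer of the reads. In a whole gland, fewer cells of a type and less of the miRNA per cell cannot be told apart.

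A miRNA guides an Argonaute protein to messenger RNAs that pair with its seed, the bases near its 5′ end, and the paired messages are translated less or decay sooner. The miR-101 family is known for acting on Ezh2, which encodes the histone methyltransferase of the Polycomb repressive complex, and on Ptgs2, which encodes cyclooxygenase-2 (Cox-2), the enzyme that starts prostaglandin synthesis. miR-101a has been linked to Cox-2 in mammary epithelial cells, whose number rises in pregnancy and falls again in involution.

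The mature sequences show how alike the members are and where their seeds are shifted against each other. They are RefSeq sequences with the coordinates of GRCm38.p6, written 5′ to 3′ with the seed (bases 2 to 8) in capitals, beside miR-144-3p, the listed miRNA that shares bases 2 to 7 with miR-101a-3p, and miR-101c.
miR-101a-3p (chr4:101346957-101346977, minus strand): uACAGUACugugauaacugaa
miR-101b-3p (chr19:29135338-29135356, plus strand): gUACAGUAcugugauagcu
miR-144-3p (chr11:78073047-78073066, plus strand): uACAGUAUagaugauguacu
miR-101c (chr9:3038680-3038698, minus strand): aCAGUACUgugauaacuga
miR-101b-3p carries 1 more base at its 5′ end, so that base 1 of miR-101a-3p faces its base 2. Over the 18 bases that then face each other, 17 were identical, and the exception was A16G, counted from the 5′ end of miR-101a-3p. Because of the extra base, bases 2 to 8 of miR-101b-3p are bases 1 to 7 of miR-101a-3p. Of the 854 listed miRNAs with a RefSeq sequence, none other had the seed of either member. Among them, miR-582-5p shares bases 2 to 7 with miR-101b-3p, and its levels are not analysed here. miR-101c lies whole inside miR-101a-3p, from its base 2 to its base 20, and is not analysed here, so a read of those 19 bases could belong to either. Reads that end early could likewise be divided uncertainly between the members, since they differ at 1 internal base and in their ends.

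The members come from separate genes. The hairpins are shown to place the mature 3′ arm, in capitals, within each precursor.
Mir101a (chr4:101346945-101347027, minus strand): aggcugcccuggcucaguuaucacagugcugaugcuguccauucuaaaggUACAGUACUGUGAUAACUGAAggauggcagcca
Mir101b (chr19:29135279-29135375, plus strand): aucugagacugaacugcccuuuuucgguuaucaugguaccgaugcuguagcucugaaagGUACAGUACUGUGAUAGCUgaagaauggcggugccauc
In the GENCODE annotation of GRCm38, Mir101a lies within an exon of 1 of the 2 transcripts of the long non-coding RNA gene E130102H24Rik, on the same strand. The nearest protein-coding genes are Jak1, 81663 bp away, and Ak4, 72250 bp away. Mir101b lies in an intron of Rcl1, which encodes a factor of ribosomal RNA processing, on the same strand. Its nearest protein-coding neighbours other than Rcl1 are Ak3, at 87318 bp, and Jak2, at 116453 bp, so that both loci have a Janus kinase gene and an adenylate kinase gene beside them. No other miRNA gene lies within 10000 bp of either.

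Nearly all reads of both hairpins came from the 3′ arms. miR-101a-3p had 5927 to 13742 reads in a library, where chance in counting alone gives a coefficient of variation of at most 1.30%. miR-101b-3p had 1459 to 4048 reads, with at most 2.62%. The 5′ arms, miR-101a-5p and miR-101b-5p, had at most 4 and 5 reads in a library and 5 to 11 reads over the 6 mice of a stage. That is about the 3 reads that a count of 0 allows, so differences of the 5′ arms between stages were not detectable at this depth. By mean level, miR-101a-3p ranked between 16 (Lac7) and 23 (P18) among the listed miRNAs, and miR-101b-3p between 35 (Lac7) and 51 (Inv3).

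The level of mmu-miR-101a-3p was highest in lactation. In W10 mice it was 6499 RPM in the lowest, 9397 at the median and 12826 in the highest, with a mean of 9729 ± 2399 (SD, n = 6). The P18 mice had a lowest level of 6040 RPM, a median of 8086 and a highest of 9127, and their mean was 7733 ± 1165 (SD, n = 6). At Lac7 the values ran from 10964 RPM through a median of 12754 to 14629, with a mean of 12536 ± 1397 (SD, n = 6). The W10 mice were the most spread, and the 6 Lac7 mice lay above each P18 mouse. At Inv3 the lowest mouse had 6488 RPM, the median was 8918 and the highest mouse had 10527, giving a mean of 8865 ± 1357 (SD, n = 6). These 6 mice lay below every Lac7 mouse and overlapped with those of W10 and P18.

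mmu-miR-101b-3p was less abundant at every stage and also had its highest mean in lactation. Its level at W10 was 1601 RPM in the lowest mouse, 2316 at the median and 2527 in the highest, with a mean of 2207 ± 354 (SD, n = 6). At P18 it ran from 2133 RPM through a median of 2683 to 3474, with a mean of 2744 ± 550 (SD, n = 6). Of the 6 P18 mice, 4 lay above the highest W10 mouse. The Lac7 mice had a lowest level of 2944 RPM, a median of 3721 and a highest of 4515, with a mean of 3807 ± 578 (SD, n = 6). In the Inv3 mice the lowest was 1420 RPM, the median 1679 and the highest 2122, with a mean of 1720 ± 247 (SD, n = 6). The Inv3 mice lay below all mice of P18, the highest of them falling just short of the lowest P18 mouse, and below all mice of Lac7.

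**Figure D1:**
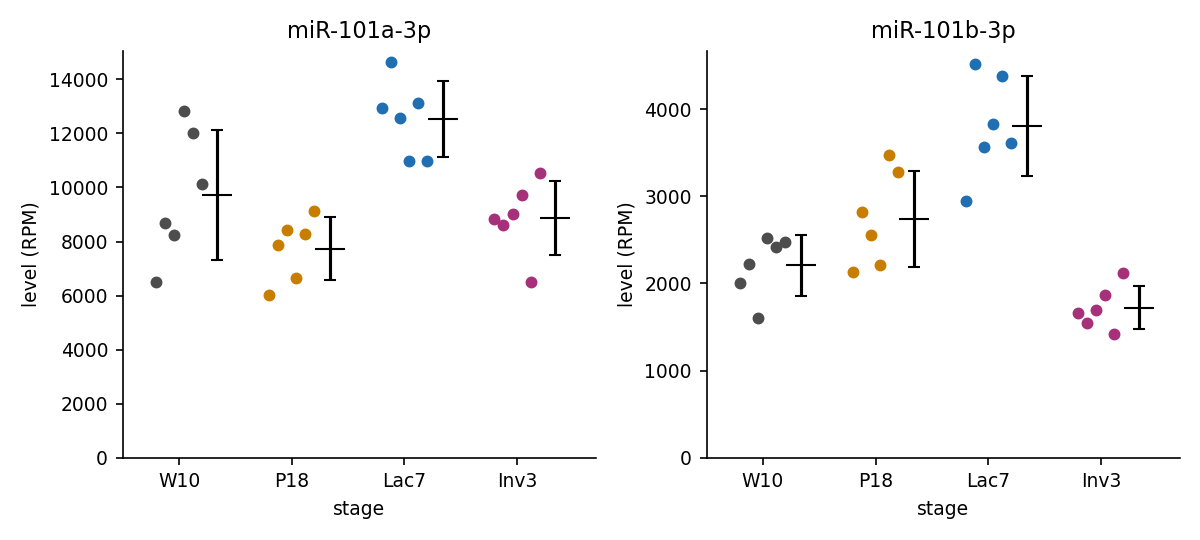
Level of miR-101a-3p (left) and miR-101b-3p (right) in RPM at each stage, with a point for each mouse and a bar for the mean ± SD of 6 mice; both vertical axes start at 0 and differ in scale. The mean is highest at Lac7 in both panels (12536 and 3807 RPM) and lowest at P18 for miR-101a-3p (7733 RPM) and at Inv3 for miR-101b-3p (1720 RPM), while single mice of Lac7 overlap with W10 on the left and with P18 on the right.

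To ask between which stages the levels differed, each pair of stages was compared with limma on log2(RPM + 1), fitted over the 544 miRNAs whose mean reached 1 RPM at any of the stages. Calls were made at a Benjamini-Hochberg adjusted p under 0.05 over all 544. miR-101a-3p was called in 3 of the 6 pairs and miR-101b-3p in 5 of them.

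Both members rose from late pregnancy to lactation. miR-101a-3p was 1.62-fold higher by stage means at Lac7 than at P18, a log2 fold change of 0.70 (SE 0.146, adjusted p = 0.000239). miR-101b-3p was 1.39-fold higher, a log2 fold change of 0.48 (95% interval 0.19 to 0.77, adjusted p = 0.00586), and 5 of the 6 Lac7 mice lay above the highest P18 mouse. In this comparison 45.2% of the tested miRNAs were called, 13.8% as higher and 31.4% as lower, and the median over all of them was a log2 fold change of -0.34. Calls were more frequent among abundant miRNAs: of the 188 whose mean reached 100 RPM at any stage, tested on their own, 70.2% were called in this comparison and between 53.7% and 87.2% over the 6 pairs.

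Both members fell from lactation to involution, miR-101b-3p by more. miR-101a-3p was 1.41-fold lower at Inv3 than at Lac7, a log2 fold change of -0.51 (95% interval -0.81 to -0.21, adjusted p = 0.00536). miR-101b-3p was 2.21-fold lower, a log2 fold change of -1.14 (95% interval -1.43 to -0.85, adjusted p = 1.88e-07). Here 46.9% of the tested miRNAs were called, 27.9% as higher and 18.9% as lower, and the median log2 fold change was 0.28. Each fold change of the members into lactation and out of it was thus opposite in sign to the median miRNA.

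Between the adult gland and late pregnancy neither member passed the threshold by RPM. miR-101a-3p had a log2 fold change of -0.31 at P18 against W10 (95% interval -0.61 to -0.01, adjusted p = 0.0903), beside a median of -0.32 over all tested miRNAs. Without W10 mouse 1, which had the lowest level of its stage, it became -0.42 with an adjusted p of 0.0162. miR-101b-3p had a log2 fold change of 0.31 (95% interval 0.02 to 0.60, adjusted p = 0.0827). Size factors of DESeq2 scale a library by its typical miRNA in place of its total. With them the value for miR-101a-3p was -0.06 (adjusted p = 0.775). That for miR-101b-3p was 0.56 with size factors and passed the threshold (adjusted p = 0.00209). By RPM, 41.5% of the tested miRNAs were called, 12.1% as higher and 29.4% as lower.

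Lactation also stood above the adult gland. miR-101b-3p was 1.72-fold higher at Lac7 than at W10, a log2 fold change of 0.79 (95% interval 0.50 to 1.08, adjusted p = 2.05e-05), and no Lac7 mouse overlapped with the W10 mice. miR-101a-3p was 1.29-fold higher, a log2 fold change of 0.40 (95% interval 0.10 to 0.69, adjusted p = 0.0186), with 3 of the 6 Lac7 mice above the highest W10 mouse. Without W10 mouse 1 the log2 fold change of miR-101a-3p was 0.29 and no longer passed (adjusted p = 0.0678). Over all mice it was 0.95 with size factors (adjusted p = 9.15e-07), where the median of all tested miRNAs was -0.31. By RPM, Lac7 against W10 was the comparison with the most calls, 66.7% of the tested miRNAs. Of all tested, 18.2% were called as higher and 48.5% as lower, around a median log2 fold change of -0.66.

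Involution was also set against the stages before lactation. miR-101b-3p was 1.60-fold lower at Inv3 than at P18, a log2 fold change of -0.66 (95% interval -0.95 to -0.37, adjusted p = 0.000807). miR-101a-3p had a log2 fold change of 0.20 in the same comparison (95% interval -0.10 to 0.49, adjusted p = 0.37). Of the tested miRNAs 28.5% were called, 10.8% as higher and 17.6% as lower. Against W10, miR-101b-3p had a log2 fold change of -0.35 at Inv3 (95% interval -0.64 to -0.07), which passed by RPM (adjusted p = 0.0467) but was 0.02 with size factors (adjusted p = 0.919), and it did not pass when any of 8 single mice were left out. The log2 fold change of miR-101a-3p was -0.11 (95% interval -0.41 to 0.19, adjusted p = 0.576) by RPM and 0.27 with size factors. In this comparison 39.2% of the tested miRNAs were called, 7.90% as higher and 31.2% as lower, with a median log2 fold change of -0.41 by RPM and -0.10 with size factors.

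**Figure D2:**
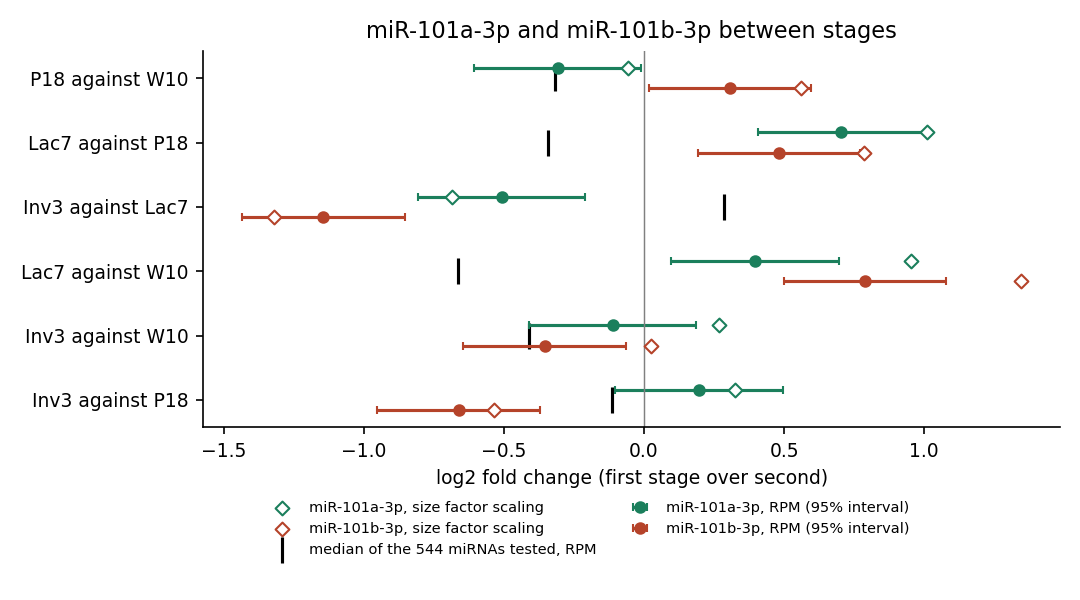
Log2 fold change of miR-101a-3p and miR-101b-3p in each pair of stages, first stage over second. Filled circles with bars are the limma values on RPM with their 95% intervals, open diamonds the values with size factors, and black ticks the median of the 544 tested miRNAs by RPM; from Lac7 to Inv3 both members lie left of 0 (-0.51 and -1.14) and the tick lies right of it (0.28).

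Ordered by mean RPM, miR-101a-3p stood highest at Lac7, then W10, Inv3 and P18. Of the neighbours in that order, W10 and Inv3, and Inv3 and P18, did not differ beyond the spread between mice. miR-101b-3p stood highest at Lac7, then P18, W10 and Inv3, and of its neighbours P18 and W10 missed the adjusted threshold by RPM and passed it with size factors. With size factors Lac7 stayed first for both members, while W10 and Inv3 changed places. miR-101a-3p then had scaled means of 14848 at Lac7, 9237 at Inv3, 7813 at W10 and 7411 at P18, and miR-101b-3p had 4520 at Lac7, 2628 at P18, 1796 at Inv3 and 1777 at W10.

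Whether the members changed unequally was asked with the ratio of miR-101a-3p to miR-101b-3p in each mouse. A ratio within a library does not depend on the scaling. Its size also depends on how well each sequence was captured, which was not measured, so only its differences between stages were tested. The ratio at W10 was 3.24 in the lowest mouse, 4.53 at the median and 5.14 in the highest, with a mean of 4.41 ± 0.778 (SD, n = 6). At P18 it was 2.39, 2.81 and 3.30 in the same order, with a mean of 2.85 ± 0.298 (SD, n = 6). The lactating mice had 2.86, 3.14 and 4.40, with a mean of 3.34 ± 0.565 (SD, n = 6). In involution the ratio was 4.57, 5.25 and 5.56, with a mean of 5.15 ± 0.346 (SD, n = 6). Every Inv3 mouse thus lay above every mouse of P18 and Lac7, and all W10 mice but W10 mouse 1 lay above every P18 mouse. miR-101b-3p made up 23.3% to 29.5% of the summed level of both members in the P18 mice, and 15.2% to 18.0% in the Inv3 mice.

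The ratio differed between stages in 4 of the 6 pairs, by two-sided exact permutation of 6 mice against 6 and adjustment over the 6 pairs. It was 1.81-fold higher at Inv3 than at P18, a log2 difference of 0.86 ± 0.0743 (SE, exact permutation p = 0.00216, the smallest that 6 mice against 6 can give, adjusted p = 0.00649). From Lac7 to Inv3 the log2 ratio rose by 0.64 ± 0.101 (SE, exact permutation p = 0.00216, adjusted p = 0.00649). From W10 to P18 the log2 ratio differed by -0.62 ± 0.126 (SE, exact permutation p = 0.00433, adjusted p = 0.00866). The log2 difference between Lac7 and W10 was -0.39 ± 0.143 (SE, exact permutation p = 0.026, adjusted p = 0.039), a call that was lost when any of 9 single mice were left out. Lac7 against P18 gave a log2 difference of 0.22 ± 0.111 (SE) and Inv3 against W10 one of 0.24 ± 0.117 (SE), with an adjusted exact permutation p of 0.0628 in both. Thus the members rose together into lactation with no difference past the threshold between them, and differed into pregnancy and into involution.

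**Figure D3:**
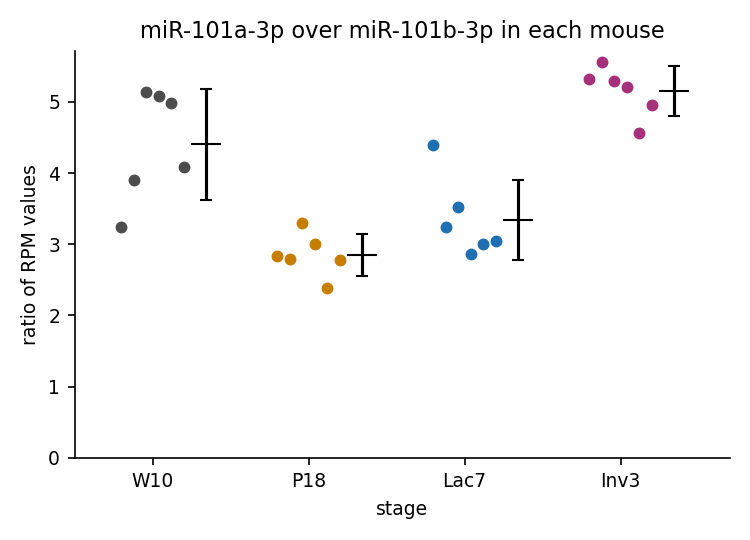
Ratio of the RPM of miR-101a-3p to that of miR-101b-3p in each mouse, by stage, on an axis that starts at 0, with the mean ± SD of 6 mice beside the points. The P18 mice lie lowest, between 2.39 and 3.30, and the Inv3 mice highest, between 4.57 and 5.56.

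Mice of the same stage that had more of a member tended to have more of the other. With the stage means of log2(RPM + 1) subtracted, Pearson's r between the members over the 24 mice was 0.693 (permutation p = 0.00052, adjusted p = 0.0026) and Spearman's rho was 0.759 (permutation p = 0.00013, adjusted p = 0.00065). Without the 2 mice farthest from the median, r was 0.717. Within a stage of 6 mice r was 0.683 for W10, 0.852 for P18, 0.348 for Lac7 and 0.910 for Inv3. Among the 5 relations computed, that at Inv3 was the within-stage relation whose r passed adjustment (adjusted exact permutation p = 0.028), and with size factors it was 0.815 (adjusted exact permutation p = 0.093). The stages were different mice, and the members of a mouse share its library and its scaling. The relation over the 24 mice was not particular to the pair. With stage means subtracted, the highest r with miR-101a-3p was that of miR-106b-5p (0.758). The highest r with miR-101b-3p was that of miR-29b-3p (0.817).

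**Figure D4:**
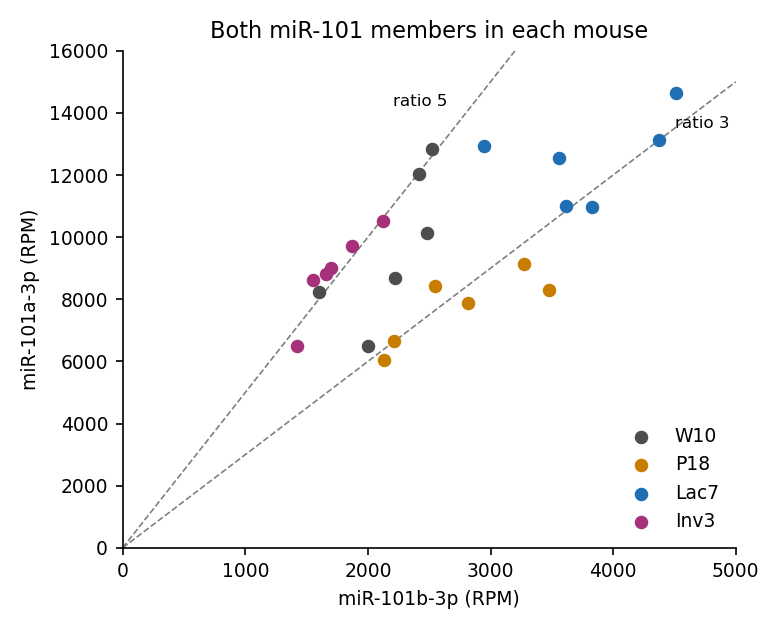
Level of miR-101b-3p (horizontal, RPM) against that of miR-101a-3p (vertical, RPM) in the 24 mice, coloured by stage, with dashed lines where the ratio is 3 and 5. P18 and Lac7 mice lie mostly along the line of 3 and Inv3 mice along the line of 5, at mean ratios of 2.85, 3.34 and 5.15.

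miR-144-3p, which shares bases 2 to 7 with miR-101a-3p, also had its highest mean at Lac7, at a lower level. It is made with miR-451a in red blood cell precursors. Its mean was 87.8 ± 32.7 RPM in W10 mice and 118 ± 55.6 in P18 mice, then 323 ± 41.2 in lactation and 82.6 ± 16.2 in involution (SD, n = 6 each), and its Lac7 mice, between 264 and 371 RPM, lay above all others. Its log2 fold change from W10 to P18 was 0.40 (adjusted p = 0.212), and 0.64 with size factors (adjusted p = 0.0322), whereas miR-101a-3p had its lowest mean at P18. From P18 to Lac7 miR-144-3p rose by a log2 fold change of 1.56 (adjusted p = 1.1e-05), and from Lac7 to Inv3 it had one of -1.97 (adjusted p = 3.12e-07). By RPM the other red blood cell markers did not pass the threshold from P18 to Lac7. Their log2 fold changes were 0.06 for miR-144-5p, from the same hairpin (adjusted p = 0.871), 0.49 for miR-451a (adjusted p = 0.134) and 0.16 for miR-486a-5p (adjusted p = 0.664). With size factors miR-451a rose over that step by 0.79 (adjusted p = 0.0109). Into Inv3, 1 of these 4 markers rose, miR-486a-5p, and 1 fell, miR-144-3p.

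The miRNAs whose levels were most like those of a member were ranked by Pearson's r of log2(RPM + 1), among 186 others whose mean reached 100 RPM at any of the stages. Over the 24 libraries, those most like miR-101a-3p were miR-3068-5p (r = 0.79), miR-107-3p (0.76), miR-144-3p (0.72), miR-151-5p (0.68) and miR-32-5p (0.68), while miR-101b-3p had an r of 0.61 with it. Those most like miR-101b-3p were miR-144-3p (r = 0.88), miR-32-5p (0.88), miR-151-5p (0.85), miR-7a-5p (0.84) and miR-30c-5p (0.82). The 3 names common to both sets had their highest mean at Lac7, such as miR-32-5p with 544 ± 89.6 RPM there against 372 ± 108 at P18 and 253 ± 52.4 at Inv3 (SD, n = 6 each). A peak at Lac7 is favoured by the choice itself, since the members peak there. Of the 188 miRNAs whose mean reached 100 RPM at any stage, 28.7% had their highest mean at Lac7. After the stage means were subtracted, which leaves the variation among mice of a stage, the names changed except for miR-144-3p, and for miR-32-5p with miR-101b-3p. miR-106b-5p, of the miR-17 family, led for miR-101a-3p (r = 0.76), followed by miR-18a-5p (0.70), miR-29b-3p (0.65), miR-96-5p (0.65) and miR-144-3p (0.64). For miR-101b-3p the order was miR-29b-3p, known for acting on collagen messages (r = 0.82), miR-144-3p (0.79), miR-32-5p (0.72), miR-30e-5p (0.67) and miR-106b-5p (0.65). miR-29b-3p had a different course over the stages, with its lowest mean at P18 (259 ± 64.5 RPM) and 490 ± 74.1 at Lac7 (SD, n = 6 each). These correlations are a description over libraries that share 4 stage means and 1 scaling. Likeness also went with base composition. Over 158 miRNAs with a sequence, Pearson's r of likeness with the percent of G and C bases was -0.17 for miR-101a-3p and -0.21 for miR-101b-3p. After subtracting stage means it was -0.20 and -0.34. The part of base composition in the likeness was not tested.

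**Figure D5:**
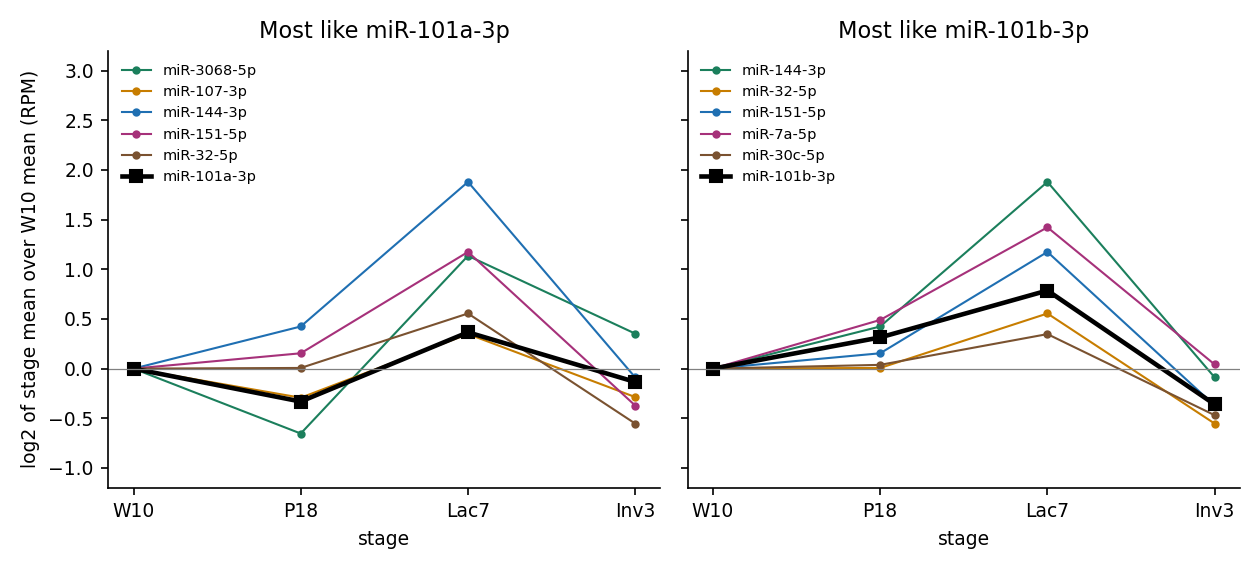
Stage means of each member (black squares) and of the 5 miRNAs most like it over the 24 libraries, as the log2 of the stage mean over the W10 mean in RPM. All 5 miRNAs beside each member are highest at Lac7, which choosing them by likeness to a member that peaks there favours. miR-144-3p rises the most in both panels, from 87.8 RPM at W10 to 323 RPM at Lac7.

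Sites in the known target messages are shown because they hold the complements of different seeds. Capitals mark TACTGT, the complement of bases 2 to 7 of miR-101a-3p, in the 3′ UTR of a GENCODE transcript of each gene (GRCm38, transcript strand).
Ptgs2, chr1:150107388-150107410, plus strand: attatcagctgaggTACTGTata
Ptgs2, chr1:150107826-150107848, plus strand: atgatgacaaataaTACTGTtat
Ezh2, chr6:47530473-47530495, minus strand: tcaggaaccttgagTACTGTggg
Ezh2, chr6:47530418-47530440, minus strand: ctgaatttgcaaagTACTGTaac
The complement of bases 2 to 8 is GTACTGT for miR-101a-3p, TACTGTA for miR-101b-3p and ATACTGT for miR-144-3p, and all of these contain TACTGT. The upper Ptgs2 site held the complements of both members, and the lower one that of miR-144-3p. The upper Ezh2 site held the complement of miR-101a-3p alone, and the lower one those of both members. Searched on the transcript strand, within the first 2448 bases of the 4023 3′ UTRs at least as long as that of Ptgs2, 14.9% held GTACTGT, 19.5% TACTGTA and 19.3% ATACTGT. Within the first 405 bases of the 15298 at least as long as that of Ezh2, the shares were 2.71%, 3.33% and 3.00%. A match of letters is a description of the message, and neither message was measured in these libraries.

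Other miRNAs reported to act on the same messages were counted in the steps where both members moved. Of 6 miRNAs reported for Ptgs2, 5 were tested. From P18 to Lac7, where both members rose, none of the 5 rose and 3 fell, with a median log2 fold change of -0.72 against -0.34 over all 544. Over that step 13.8% of all tested miRNAs rose and 31.4% fell. With size factors 1 of them rose, miR-26b-5p (log2 fold change 0.31, adjusted p = 0.0068). From Lac7 to Inv3, where both members fell, 4 rose and 1 fell, with a median of 0.82 against 0.28. Over that step 27.9% of all tested miRNAs rose and 18.9% fell. Of the 188 miRNAs that reached 100 RPM, as these 5 did, 80.3% were called in either direction when tested on their own. miR-146a-5p, induced by inflammatory signals, went from 3267 ± 1143 RPM at Lac7 to 14669 ± 4678 at Inv3 (SD, n = 6 each, log2 fold change 2.19, adjusted p = 9.2e-10). miR-143-3p, of smooth muscle and fibroblasts, went from 138521 ± 7231 to 246220 ± 29288 RPM (SD, n = 6 each, log2 fold change 0.82, adjusted p = 1.6e-08). miR-26b-5p fell, from 2685 ± 197 to 2150 ± 207 RPM (SD, n = 6 each, log2 fold change -0.32, adjusted p = 0.00342). Of the 6 miRNAs reported for Ezh2, all tested, none rose and 2 fell from P18 to Lac7 (median -0.68 against -0.34 over all 544), where 31.4% of all tested miRNAs fell. From Lac7 to Inv3, 1 of the 6 rose and 2 fell (median -0.06 against 0.28), where 27.9% of all tested miRNAs rose and 18.9% fell, so these counts are near the background. miR-26a-5p, the most abundant of these, was at 4634 ± 336 RPM at P18 and 5380 ± 282 at Lac7 (SD, n = 6 each, log2 fold change 0.22, adjusted p = 0.0666). With size factors it rose over that step, by a log2 fold change of 0.52 (adjusted p = 0.000113).

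Markers of cell types moved between the same stages, and their part in the levels of the members was not tested. No marker was at 0 in all libraries, and the values below are by RPM. The counts of called markers stand against shares over all 544 miRNAs of 12.1% higher and 29.4% lower from W10 to P18, 13.8% higher and 31.4% lower from P18 to Lac7, and 27.9% higher and 18.9% lower from Lac7 to Inv3. The summed level of 6 epithelial miRNAs, 5 of them of the miR-200 family, was 15083 to 21387 RPM in the W10 mice, 49216 to 64031 at P18, 113795 to 133198 at Lac7 and 24194 to 78695 at Inv3. From P18 to Lac7, 4 of the 6 rose and 1 fell, and from Lac7 to Inv3, 1 rose and 5 fell. From W10 to P18, 5 of the 6 epithelial markers rose. Of the 5 fibroblast and smooth muscle markers, 3 fell and 1 rose over that step, and 3 of the 3 lymphocyte and 3 of the 3 myeloid markers fell. So did 2 of the 3 skeletal muscle, 2 of the 3 adipose, 2 of the 4 red blood cell and 1 of the 2 endothelial markers. Over P18 to Lac7, 3 of the 5 fibroblast and smooth muscle markers, 3 of the 3 lymphocyte markers and 3 of the 3 myeloid markers fell, and then every marker of these 3 lists rose into Inv3. With size factors 2 of the 3 myeloid markers fell into Lac7. Both endothelial markers rose from P18 to Lac7 and 1 of them fell from Lac7 to Inv3. Of the 3 adipose markers, miR-365-3p fell into Lac7 and rose into Inv3, neither of which was called with size factors, and miR-193b-3p, with 44 reads over all libraries, fell into Inv3. No skeletal muscle marker was called into Lac7, and 2 of the 3 fell into Inv3. The skeletal muscle sum was the most uneven within a stage, at 2308 to 22907 RPM in the W10 mice. The liver miRNA miR-122-5p ranged from 0 to 2062 RPM in the P18 mice and from 0 to 626 RPM at Inv3, where it rose against Lac7.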

How the data were processed

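Small RNA of 24 mouse mammary glands was measured, 6 at each of 4 stages, grouped by the labels of the libraries. The labels and the study's methods give day 7 of lactation and day 3 of involution, which are used here, while the series' design text has day 3 and day 7. The authors deposited RPM for 1009 miRNAs, made with a QIAseq kit, QuickMIRSeq and miRBase 22, and the submitters' processing notes name Trimmomatic 0.36, cutadapt, FastQC, MultiQC and GRCm38. Whether molecular identifiers were counted is not given in the sources used here, so depth limits cover counting error only. The RPM steps gave back whole reads within 0.01 RPM for 100% of the values in all libraries but 2, Inv3 mice 5 (97.2%) and 6 (95.9%), whose other values were rounded to the nearest read. The reads were used for depth, size factors, edgeR 4.0.16 and DESeq2 1.42.0. No library was left out. Among the 60 pairs of libraries of a stage the lowest chi-square per degree of freedom was 9.63, so none was a duplicate.

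The 544 miRNAs whose mean reached 1 RPM at any stage were fitted with limma 3.58.1 (eBayes with a trend, two-sided) on log2(RPM + 1) over all 24 libraries, which understates changes of low miRNAs, and the script was tested on simulated data. The ratio was tested by exact permutation over mice, and relations between mice by 100000 permutations, or all 720 within a stage. No label says which mice share a litter. Named were the members, other miR-101 miRNAs, miR-144-3p, the 5 miRNAs most like each member over libraries and after subtracting stage means, 2 lists of miRNAs reported to act on Ptgs2 or Ezh2 and the markers of 9 cell types. miR-199b-3p, of the Ptgs2 list, is not analysed here. The members and the lists were chosen with earlier results of these data known. Alternatives were pseudocounts of 0.1 and 10, no filter and a filter at 100 RPM, size factors, edgeR, DESeq2, a fit of only the 12 libraries compared, the mouse number as a block, untransformed ratios, stage medians and each mouse left out in turn. Size factors for the relation between the members and for the lists were added after the data were seen. R was version 4.3.3, and other steps ran in python 3.11.15 with scipy 1.17.1, numpy 2.4.6, matplotlib 3.10.9 and pandas 2.3.3. Genes and 3′ UTRs are from GENCODE M21.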

Additional observations from a re-analysis of the deposited data

How the results depend on the processing

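Direction and call held in 109 of 126 comparisons with another setting. For Inv3 against W10, the log2 fold change of miR-101a-3p turned to 0.27 with size factors, 0.28 with edgeR and 0.24 with DESeq2, and that of miR-101b-3p to 0.024, 0.050 and 0.015. By RPM the latter stayed at -0.35 but lost its call with no filter (adjusted p = 0.0866), with the 12 libraries alone (0.0696) and with the replicate block (-0.35, 0.0591). For P18 against W10, miR-101b-3p gained a call with size factors (0.56), edgeR (0.62) and DESeq2 (0.56). Size factors move the median of all tested miRNAs, from -0.32 to -0.12 in that comparison and from -0.66 to -0.31 for Lac7 against W10. Mouse numbers gave no pairing, with a mean r of -0.045 over 33 same-number pairs against 0.004 over the other 183. With the replicate block, 5 or 6 pairs cannot take the ratio below an unadjusted p of 0.0625 or 0.0312. Once adjusted over the 6 comparisons, the ratio could therefore not pass in any of them. Its calls were bound to be lost, and these losses are counted among the 126. They were for P18 against W10 (-0.63), Inv3 against Lac7 (0.64), Lac7 against W10 (-0.39) and Inv3 against P18 (0.86). With stage medians the ratio lost its call for Lac7 against W10 (-0.52, adjusted exact permutation p = 0.0682). A filter at 100 RPM, which tests fewer miRNAs, called 127 in place of 226 (P18 against W10), 132 of 246 (Lac7 against P18), 151 of 255 (Inv3 against Lac7), 164 of 363 (Lac7 against W10) and 123 of 213 (Inv3 against W10), and for Inv3 against P18 it called 53.7% of 188 in place of 28.5% of 544. With each mouse left out in turn, the log2 fold change of miR-101a-3p ran from -0.42 to -0.22 for P18 against W10 and from 0.29 to 0.48 for Lac7 against W10, where leaving out W10 mouse 1 gained the first call and lost the second. That of miR-101b-3p ran from 0.22 to 0.38 for P18 against W10, called without P18 mouse 1 or 4, and from -0.44 to -0.30 for Inv3 against W10, lost without W10 mouse 2, 4, 5 or 7 or Inv3 mouse 1, 2, 3 or 5. The log2 ratio ran from 0.14 to 0.27 for Lac7 against P18, called without P18 mouse 3 or Lac7 mouse 4, from -0.48 to -0.34 for Lac7 against W10, lost without W10 mouse 3, 4, 5 or 7 or any of Lac7 mice 2 to 6, and from 0.16 to 0.29 for Inv3 against W10, called without W10 mouse 3. The other calls of the members and the ratio held without any single mouse. With size factors the r of the members over the 24 mice was 0.657.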
